A study of Mus musculus with 9 samples.

Results

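Transcripts of the Notch pathway were examined in cell line 170#3, a mouse pancreatic cancer line of mixed C57BL6, FVB and 129Sv background. The members are the receptor genes Notch1, Notch2 and Notch3, the ligand genes Jag1, Jag2 and Dll1, and the target genes Hes1, Hey1, Hey2 and Heyl. They were chosen by name, as every probe set that the platform annotation gives to 1 of these symbols alone. This gave 18 probe sets for 10 genes, out of 45037 probe sets and 18193 genes in all. Each probe set is a group of probes that reports 1 log2 expression value per array.

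Cells of the control group carried a control stable transfection. Cells of a further group were stably transfected with beta-catenin (Ctnnb1), the co-activator of TCF/LEF factors in Wnt signalling. The ICAT group was stably transfected with ICAT (Ctnnbip1), a small protein that keeps beta-catenin from binding TCF factors. Each group had 3 arrays, called biological replicates in the labels, and all cells were grown as monolayers with serum. The sources used here do not say how many clones or transfections a group comes from or which promoter drove the transgenes, so a p-value here covers no more than the variation among these 9 arrays, which may be technical.

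Notch receptors are cut at the cell surface by ADAM proteases and in the membrane by gamma-secretase when a ligand of the Jagged or Delta-like family on a neighbouring cell binds them. The freed intracellular part enters the nucleus and joins the DNA-binding factor RBPJ and Mastermind proteins, and genes of the HES and HEY families of transcriptional repressors are its best known targets. In the pancreas Notch signalling keeps progenitor cells from differentiating early, and the pathway is active again in pancreatic neoplasia. Jag1 is also known as a Wnt target gene in other tissues.

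Of the 18 member probe sets 17 passed a filter of log2 5 on at least 3 arrays and were tested with limma among 33545 probe sets. A probe set was called at a Benjamini-Hochberg adjusted p under 0.05. Array medians lay between 6.21 and 6.29. The median SD between replicates over tested probe sets was 0.0662 on the control arrays, 0.0816 on the beta-catenin arrays and 0.122 on the ICAT arrays, so ICAT means carried the largest error. The number of arrays limits the precision, and an exact permutation test of 3 against 3 arrays cannot give a p under 0.1. The brightest Ctnnb1 probe set lay at 12.68 in control and 12.88 in both other groups, which was called in beta-catenin cells (adjusted p = 0.049) and not in ICAT cells (0.0505). That of Ctnnbip1, the ICAT gene, lay at 8.64 in control cells, against 8.78 and 8.79 in the beta-catenin and ICAT lines, and was not called (adjusted p = 0.219 in ICAT cells), so the labels could not be checked by these probe sets. A transgene without the native 3′ end would be missed by such probe sets.

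The labelled cell type was compared with marker genes. Among epithelial and ductal markers Epcam lay at 7.48 in control cells, Krt18 at 7.23 and Sox9 at 9.01, while Cdh1, the E-cadherin gene, was under 5 on all 9 arrays and Krt7 lay at 5.0. The mesenchymal genes Vim (14.26), Col3a1 (12.70) and Col1a2 (12.17) were bright in control cells themselves. The leukocyte gene Ptprc and the endothelial gene Cdh5 were under 5 on all arrays. Of the 10 immune and endothelial markers found, however, 6 had a control mean of 5 or more. Among them Kdr lay at 7.41 and Cd3e at 7.07, near Epcam and Krt18, so such levels alone do not tell cell types apart.

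In beta-catenin cells the Delta-like ligand gene Dll1 fell 2.24-fold. The receptor genes Notch1 and Notch2 rose 1.35-fold and 1.28-fold there by their brighter probe sets, while their dimmer ones were not called. Jag2 rose 1.46-fold by its dimmer probe set, the target gene Hey1 rose 1.28-fold, and Heyl fell 1.17-fold by 1 of its 3 probe sets. In ICAT cells Notch1 rose 1.86-fold by its brighter and 1.25-fold by its dimmer probe set, and Notch2 rose 1.55-fold by its brighter one alone. Hes1 rose 1.16-fold in ICAT cells, Jag2 rose 1.22-fold by the dimmer probe set, and Dll1 fell 1.33-fold. Jag1 and Notch3 were called in neither line. Of 17 tested member probe sets 4 were higher (23.5%) and 2 lower (11.8%) in beta-catenin than in control cells, beside 16% higher and 13.7% lower among all probe sets tested. That count of 6 fell to 2 without control replicate 2, a fit for which the share called among all probe sets is not given here. In ICAT against control cells 5 were higher (29.4%) and 1 lower (5.88%), beside 15% and 16.6% of all. Between beta-catenin and ICAT cells 2 were higher (11.8%) and 4 lower (23.5%) in beta-catenin cells, beside 19.5% and 15.3% of all. The comparisons with control share the 3 control arrays, and about as large a share of all probe sets was called, so the counts themselves do not set these genes apart. The median difference over the 17 was 0.02 in beta-catenin and 0.01 in ICAT cells.

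**Figure D1:**
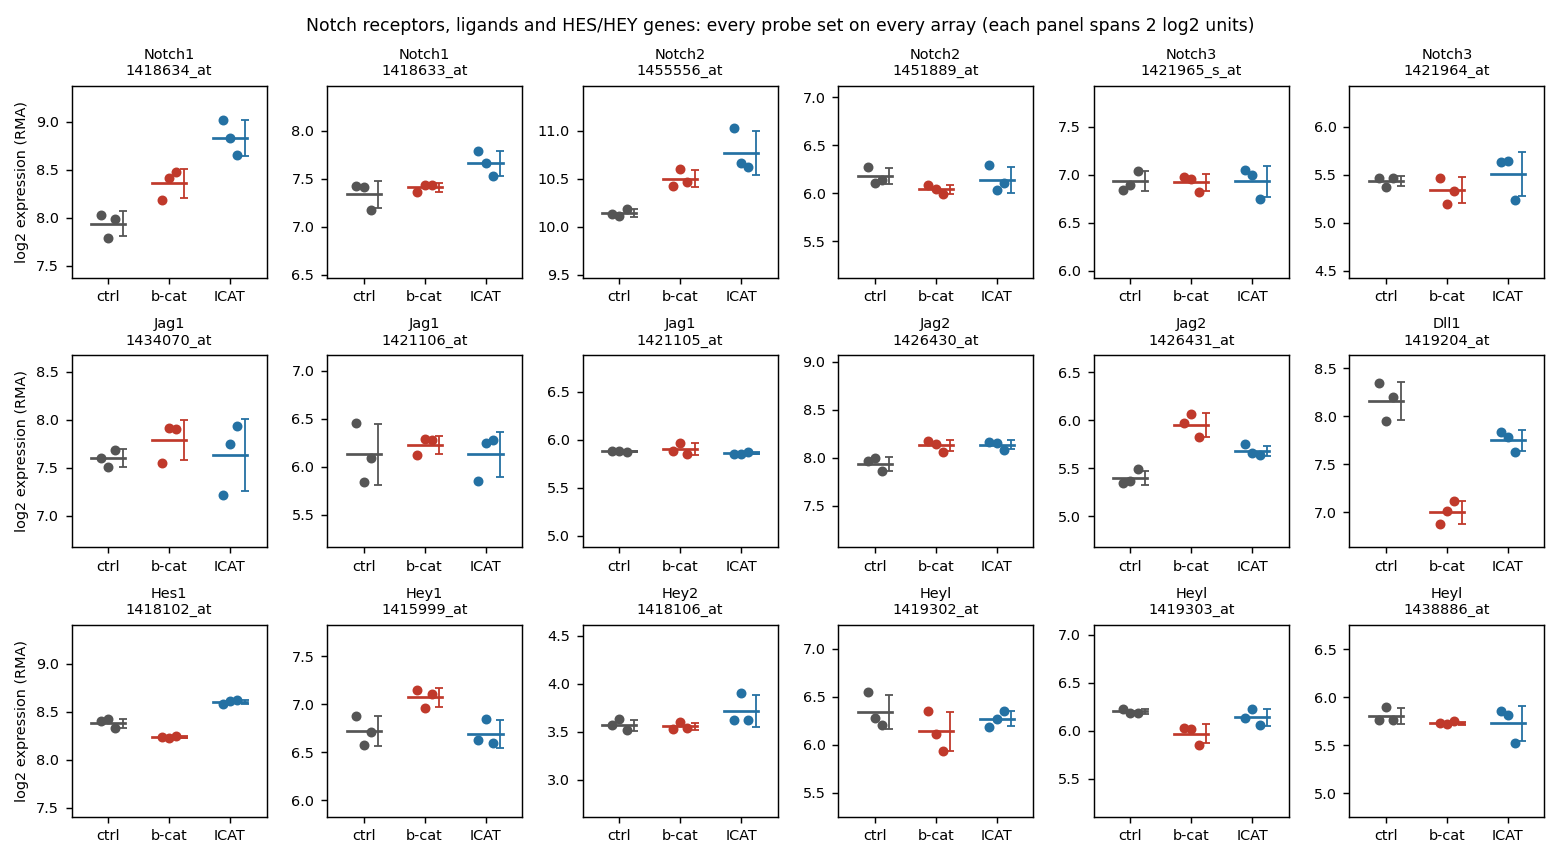
Log2 expression (RMA) of the 18 member probe sets on every array, by group (ctrl, control; b-cat, beta-catenin; ICAT). Points are arrays, horizontal lines group means and bars the SD of 3 arrays. Each panel spans 2 log2 units around its own mean, and levels of different probe sets are not comparable. Dll1 is lowest in beta-catenin cells (6.88 to 7.12), and Notch1 by its brighter probe set is highest in ICAT cells (8.65 to 9.02).

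For the genes with the largest changes among ligands and receptors, Dll1, Notch1 and Notch2, the 250 bases before the outermost annotated start are shown, from RefSeq on GRCm38.p6 (mm10). They are the stretch in which a binding site next to the promoter would lie, and capitals mark matches to the HES/HEY site CACGCG on either strand. Dll1 lies on chromosome 17, minus strand, with this stretch at chr17:15376933-15377182. For Notch1 it is chr2:26503823-26504072, minus strand, and for Notch2 chr3:98013288-98013537, plus strand. All are upstream of the gene, outside exons and introns of the gene itself.
Dll1: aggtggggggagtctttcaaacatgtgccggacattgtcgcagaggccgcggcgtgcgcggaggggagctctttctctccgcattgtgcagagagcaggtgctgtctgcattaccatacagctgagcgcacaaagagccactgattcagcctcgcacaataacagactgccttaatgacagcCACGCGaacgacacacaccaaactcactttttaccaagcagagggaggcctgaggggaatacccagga
Notch1: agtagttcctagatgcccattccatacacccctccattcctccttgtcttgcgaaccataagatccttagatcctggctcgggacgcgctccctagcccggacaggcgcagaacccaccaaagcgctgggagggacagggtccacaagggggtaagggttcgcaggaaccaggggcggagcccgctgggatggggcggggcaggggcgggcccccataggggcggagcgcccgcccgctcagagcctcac
Notch2: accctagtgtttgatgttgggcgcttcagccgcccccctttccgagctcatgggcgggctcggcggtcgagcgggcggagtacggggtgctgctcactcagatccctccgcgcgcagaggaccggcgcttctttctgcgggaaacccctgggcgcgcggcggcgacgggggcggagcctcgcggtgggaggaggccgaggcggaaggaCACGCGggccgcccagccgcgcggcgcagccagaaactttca

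Promoter stretches were found for 7 of the 10 members, with a second start for Dll1, 8 in all. The motifs searched on both strands were CACGCG for HES and HEY proteins, TGGGAA and its longer form GTGGGAA for RBPJ, and CTTTGAT for TCF/LEF factors. Matches for different factors do not overlap each other in these stretches. CACGCG was present for 3 of the 7 genes, namely Notch2, with its first base 42 bases before the start, Dll1 at 68 bases, and Jag1 at 171 and 249 bases. For Dll1 the match was before the outermost start, and the stretch of the other Dll1 start had none. By stretch it was in 3 of the 8, and among all 32851 stretches of this length 7.62% hold it. TGGGAA occurred for Hey2 alone, in reverse orientation (TTCCCA) 207 bases before the start, against 21.6% of all stretches. The longer form matched at the same place (TTCCCAC) and in no other member stretch, against 5.42% of all. CTTTGAT occurred in none of the 8, against 3.21% of all. The 8 stretches ran from 56% G and C (Dll1, outermost start) to 87.2% (Jag2), with Notch2 at 72%, against a median of 52.4% over all stretches. They held from 13 to 54 CG pairs, against a median of 6. CACGCG itself contains CG pairs, so its share among members and among all stretches is not compared on equal terms. A match describes letters in a window and shows no binding.

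Notch1 encodes a receptor whose intracellular part drives RBPJ-dependent transcription. Its brighter probe set (1418634_at) gave log2 values of 8.03, 7.79 and 7.99 on the control arrays, 8.19, 8.42 and 8.48 on the beta-catenin arrays and 9.02, 8.83 and 8.65 on the ICAT arrays. The 3 groups did not overlap, with control lowest and ICAT highest. The mean was 7.94 ± 0.129 (SD, n = 3) for control, 8.36 ± 0.15 for beta-catenin and 8.83 ± 0.185 for ICAT cells. Notch1 rose 1.35-fold in beta-catenin cells (95% interval 1.14 to 1.59, limma, adjusted p = 0.0109) and 1.86-fold in ICAT cells (1.58 to 2.20, adjusted p = 9.55e-05), and the level in beta-catenin cells was 1.38-fold below that in ICAT cells (adjusted p = 0.00576). Without control replicate 2 the rise in beta-catenin cells was not called (log2 difference 0.36, adjusted p = 0.0519). The size of the rise in ICAT cells was larger than that of 96.9% of all tested probe sets, or equal to it.

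The dimmer Notch1 probe set (1418633_at) read 7.43, 7.42 and 7.18 on the control arrays, 7.36, 7.44 and 7.44 on the beta-catenin arrays and 7.79, 7.67 and 7.53 on the ICAT arrays. Control and beta-catenin arrays overlapped and ICAT arrays lay above both. It rose 1.25-fold in ICAT cells (adjusted p = 0.0166) and was not called in beta-catenin cells (log2 difference 0.07, 95% interval -0.12 to 0.26, adjusted p = 0.611). Leaving out control replicate 3 or ICAT replicate 1 ended the ICAT call (adjusted p = 0.0834 and 0.0585). The direct difference between beta-catenin and ICAT cells (-0.25, adjusted p = 0.0479) lay at the threshold and was lost in 11 of 16 alternatives, with adjusted p-values from 0.0171 to 0.15 over all 16.

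Notch2 encodes a receptor closely related to Notch1. Its brighter probe set (1455556_at) gave 10.13, 10.11 and 10.19 on the control arrays, 10.43, 10.60 and 10.47 on the beta-catenin arrays and 11.03, 10.66 and 10.62 on the ICAT arrays. All beta-catenin and ICAT arrays exceeded all control arrays, and ICAT replicate 1 stood above the other ICAT arrays. Notch2 rose 1.28-fold in beta-catenin cells (95% interval 1.09 to 1.49, adjusted p = 0.0214) and 1.55-fold in ICAT cells (1.32 to 1.81, adjusted p = 0.000656). The rise in beta-catenin cells was not called without control replicate 1, control replicate 2 or beta-catenin replicate 2 (adjusted p = 0.0633, 0.0675 and 0.0884). The lines were not called different (log2 difference -0.28, 95% interval -0.50 to -0.05, adjusted p = 0.0569), a value that passed without ICAT replicate 3 (-0.35, adjusted p = 0.0247), with a filter of log2 6 (adjusted p = 0.0469), with 1 probe set per gene (0.0486) and with a trended prior (0.0254). The dimmer Notch2 probe set (1451889_at) lay between 5.99 and 6.29 on the 9 arrays and was called in no comparison. The probe sets of Notch2 thus differed, with differences from control of 0.35 and -0.13 in beta-catenin cells and of 0.63 and -0.03 in ICAT cells.

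Notch3 encodes a receptor best known from vascular smooth muscle. Its brighter probe set (1421965_s_at) lay between 6.75 and 7.05 on all arrays, with means of 6.93, 6.92 and 6.93 in control, beta-catenin and ICAT cells. The intervals of its differences from control ran from -0.21 to 0.19 in beta-catenin and from -0.19 to 0.21 in ICAT cells, so a change beyond these bounds was not seen. Its dimmer probe set (1421964_at), near the filter at 5.20 to 5.65, was likewise uncalled (adjusted p = 0.52 with beta-catenin, 0.712 with ICAT). Without ICAT replicate 3 it was called lower in beta-catenin than in ICAT cells (-0.31, adjusted p = 0.0138, against -0.18 and 0.254 with all arrays), and likewise with array weights (-0.32, adjusted p = 0.0267).

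Among the ligands Dll1, a Delta-like activator of Notch receptors on neighbouring cells, changed most. Its probe set gave 8.35, 7.95 and 8.20 on the control arrays, 6.88, 7.01 and 7.12 on the beta-catenin arrays and 7.84, 7.79 and 7.63 on the ICAT arrays. The groups were fully separate, with beta-catenin lowest and ICAT between the others. The means were 8.16 ± 0.203 (SD, n = 3), 7.0 ± 0.119 and 7.75 ± 0.107. Dll1 fell 2.24-fold in beta-catenin cells (95% interval 1.91 to 2.63, adjusted p = 6.23e-06), a change as large in size as or larger than that of 97.1% of tested probe sets. In ICAT cells it fell 1.33-fold (1.13 to 1.56, adjusted p = 0.0111), which was not called without control replicate 1 (log2 difference -0.32, adjusted p = 0.0526). Its level in beta-catenin cells was 1.69-fold below that in ICAT cells (adjusted p = 0.000199). The falls in beta-catenin cells and against ICAT cells kept their calls in all 17 alternatives.

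Jag2 encodes a Jagged-family ligand. The brighter of its probe sets (1426430_at) read 7.97, 8.00 and 7.86 on the control arrays, 8.18, 8.15 and 8.06 on the beta-catenin arrays and 8.17, 8.16 and 8.08 on the ICAT arrays. Control arrays lay below all others, by 0.18 and 0.19 on average, but neither difference passed (adjusted p = 0.066 and 0.0504). Several alternatives moved these values across the threshold, among them 1 probe set per gene (adjusted p = 0.0488 and 0.0363). The dimmer probe set (1426431_at) gave 5.35, 5.37 and 5.49 on the control arrays, 5.97, 6.06 and 5.82 on the beta-catenin arrays and 5.75, 5.66 and 5.64 on the ICAT arrays, with no overlap between groups. By it Jag2 rose 1.46-fold in beta-catenin cells (95% interval 1.30 to 1.65, adjusted p = 0.000224) and 1.22-fold in ICAT cells (adjusted p = 0.016), and was 1.2-fold higher in beta-catenin than in ICAT cells (adjusted p = 0.0202), whereas by the brighter probe set the lines differed by -0.01 (95% interval -0.16 to 0.14, adjusted p = 0.927). Leaving out control replicate 1 or 2 ended the ICAT call (adjusted p = 0.0641 and 0.0585), and leaving out beta-catenin replicate 1 or 2 or ICAT replicate 2 ended the call between the lines (adjusted p = 0.0556, 0.0965 and 0.0554).

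Jag1, the other Jagged-family ligand gene, had 3 probe sets, none of them called in any comparison. The brightest (1434070_at) read 7.60, 7.51 and 7.69 on the control arrays, 7.55, 7.92 and 7.90 on the beta-catenin arrays and 7.22, 7.75 and 7.94 on the ICAT arrays. Arrays of all groups overlapped, and the spread within ICAT cells (SD 0.375) exceeded every difference between group means. The interval of the difference from control ran from -0.16 to 0.55 in beta-catenin and from -0.32 to 0.39 in ICAT cells. The dimmer probe sets had intervals within -0.23 to 0.43 in beta-catenin and -0.33 to 0.33 in ICAT cells.

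**Figure D2:**
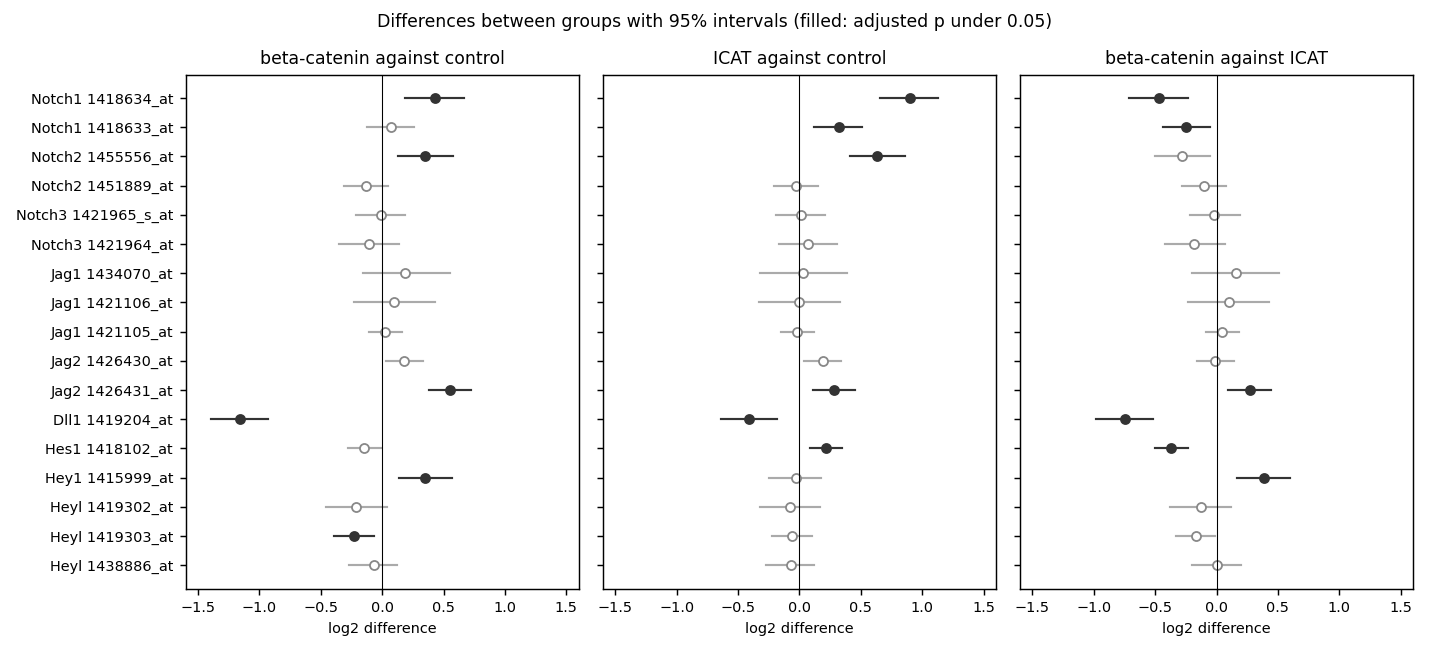
Log2 differences between groups for the 17 tested member probe sets, with 95% intervals from limma (n = 3 per group). Filled points passed an adjusted p of 0.05. Dll1 in beta-catenin cells (-1.16) and Notch1 in ICAT cells (0.90) lie farthest from 0, and all Jag1 and Notch3 points are open.

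The target genes did not move together. Hes1, which encodes a repressor of differentiation genes such as Neurog3 in pancreatic progenitors, read 8.40, 8.42 and 8.33 on the control arrays, 8.24, 8.23 and 8.25 on the beta-catenin arrays and 8.58, 8.61 and 8.62 on the ICAT arrays. The groups did not overlap, with beta-catenin lowest and ICAT highest, and the spread within groups was small (SD 0.0474, 0.0104 and 0.0191). Hes1 rose 1.16-fold in ICAT cells (95% interval 1.06 to 1.28, adjusted p = 0.0159), a call lost without control replicate 3 (log2 difference 0.19, adjusted p = 0.0836). In beta-catenin cells the difference from control was -0.15 and did not pass (95% interval -0.28 to -0.01, adjusted p = 0.0936, but 0.0273 with array weights). Between the lines Hes1 was 1.29-fold lower in beta-catenin cells (1.18 to 1.41, adjusted p = 0.000612), and this call held in all 17 alternatives.

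Hey1, a HEY-family repressor gene, gave 6.88, 6.57 and 6.71 on the control arrays, 7.15, 6.96 and 7.11 on the beta-catenin arrays and 6.63, 6.85 and 6.59 on the ICAT arrays. Beta-catenin arrays lay above all others, while control and ICAT arrays overlapped. Hey1 rose 1.28-fold in beta-catenin cells (95% interval 1.10 to 1.48, adjusted p = 0.0179) and was 1.31-fold higher there than in ICAT cells (adjusted p = 0.0095, but 0.0548 with array weights). In ICAT cells the difference from control was -0.03 (95% interval -0.25 to 0.18, adjusted p = 0.853). The rise in beta-catenin cells was not called without control replicate 2 or 3 or beta-catenin replicate 1 or 3 (adjusted p = 0.0815, 0.0547, 0.0636 and 0.0599). Hes1 and Hey1 therefore had opposite order between the lines, each by a direct test.

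Heyl, a further HEY-family gene, had 3 probe sets. The one at 1419303_at read 6.23, 6.18 and 6.18 on the control arrays, 6.03, 6.02 and 5.85 on the beta-catenin arrays and 6.13, 6.23 and 6.06 on the ICAT arrays. Beta-catenin arrays lay below all others, and Heyl fell 1.17-fold there (adjusted p = 0.037). The call was lost without any 1 of the 3 control arrays, without beta-catenin replicate 2 or 3, and with a trended prior (adjusted p = 0.0591 to 0.151 in these). Both other Heyl probe sets were below control by 0.21 and 0.07 on average in beta-catenin cells without passing (adjusted p = 0.203 and 0.601). No Heyl probe set was called in ICAT cells. Hey2 was at 3.52 to 3.91 on the 9 arrays, under the filter, and was not tested.

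The other genes of the pathway were taken from lists of 59 genes, of which 55 had a single-gene probe set and 53 were tested by their brightest one. In beta-catenin cells 10 rose and 7 fell (32.1% called in all), beside 18.7% higher and 14.4% lower among 15235 genes. The count of 17 fell to 11 without beta-catenin replicate 3, a fit for which the share called among all genes is not given here. In ICAT cells 13 rose and 6 fell (35.8%), beside 17.9% and 17.5% of all genes. Between the lines 5 were higher and 12 lower in beta-catenin cells (32.1%), beside 21.6% and 16.8% of all genes. The median difference of the 53 was 0.00 in beta-catenin and 0.04 in ICAT cells.

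**Figure D3:**
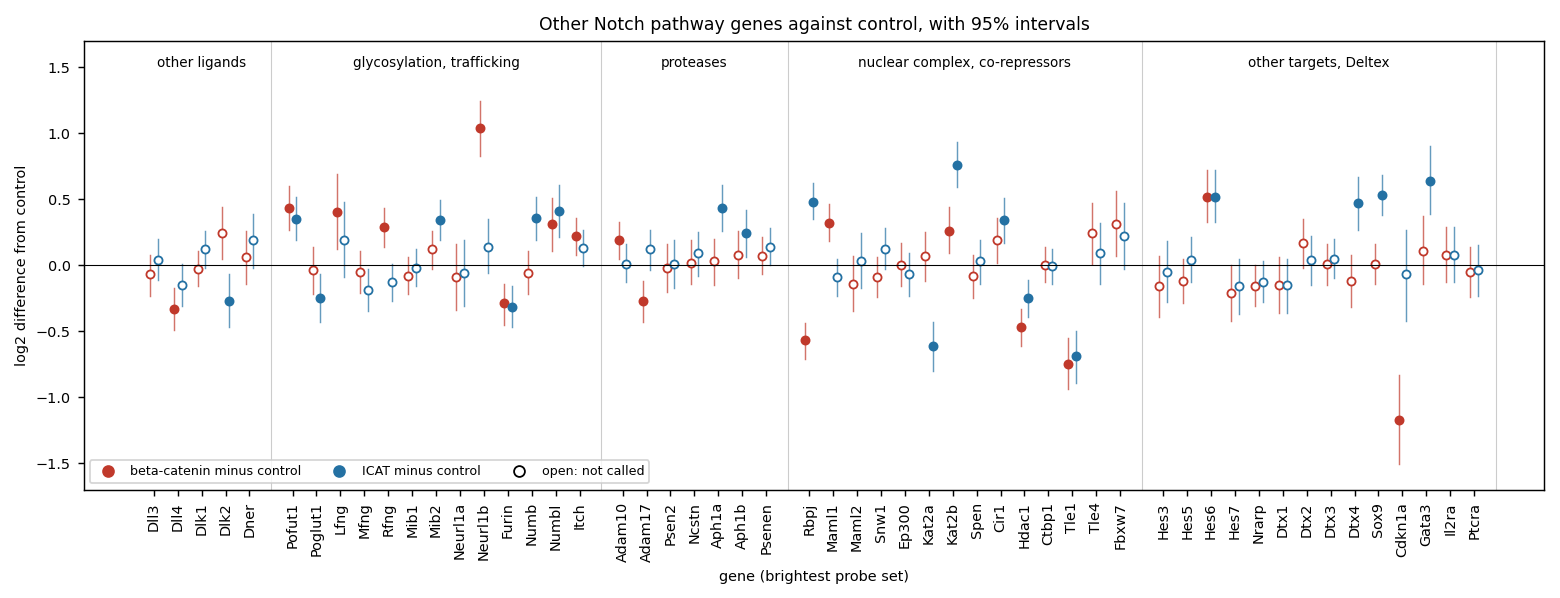
Log2 differences from control, with 95% intervals, of the 53 tested pathway genes in beta-catenin and ICAT cells, grouped by role. Filled points passed an adjusted p of 0.05. Neurl1b (1.04) and Cdkn1a (-1.17) lie farthest out in beta-catenin cells, and Rbpj has points on opposite sides of 0.

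In the nuclear complex Rbpj, the DNA-binding factor through which all Notch receptors act, moved in opposite directions. It read 10.97, 11.02 and 11.04 on the control arrays, 10.39, 10.44 and 10.47 on the beta-catenin arrays and 11.5, 11.52 and 11.45 on the ICAT arrays. The groups were far apart relative to their spread (SD 0.037, 0.041 and 0.0368). Rbpj was 1.49-fold lower with beta-catenin (adjusted p = 2.61e-05), rose 1.4-fold in ICAT cells (adjusted p = 0.000135) and was 2.08-fold lower in beta-catenin than in ICAT cells (adjusted p = 2.91e-07). Both other Rbpj probe sets were called in the same directions, by -0.74 and -0.83 in beta-catenin and 0.38 and 0.18 in ICAT cells. The order of the groups was that of Hes1, with beta-catenin lowest and ICAT highest, although Hes1 in beta-catenin against control cells was not called. It was not that of Hey1, whose mean was highest in beta-catenin cells (7.07, against 6.72 in control and 6.69 in ICAT cells). A link of Rbpj to these target values was not tested.

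Of 14 tested genes of the nuclear complex and its co-repressors, beta-catenin cells had 2 higher and 3 lower, and ICAT cells 3 of each. Beside these counts, 18.7% of all genes were higher and 14.4% lower in beta-catenin cells, and 17.9% and 17.5% in ICAT cells. Tle1, a Groucho-family co-repressor that partners HES as well as TCF proteins, fell 1.68-fold in beta-catenin and 1.62-fold in ICAT cells (adjusted p = 5.71e-05 and 0.000139). It read 9.02, 8.97 and 9.04 on the control arrays, 8.05, 8.37 and 8.37 on the beta-catenin arrays and 8.29, 8.27 and 8.40 on the ICAT arrays. The related acetyltransferase genes Kat2b and Kat2a went opposite ways in ICAT cells, with Kat2b 1.7-fold higher and Kat2a 1.53-fold lower (adjusted p = 2.91e-05 and 0.000209). A dimmer Kat2b probe set did not share the rise (log2 difference -0.07, adjusted p = 0.587), and of 2 other Kat2a probe sets 1 was called lower (-0.61, adjusted p = 8.24e-05) and 1 was not called (-0.2, adjusted p = 0.138). Maml1, which encodes a Mastermind co-activator, rose 1.25-fold with beta-catenin (adjusted p = 0.00288), while in ICAT cells its log2 difference was -0.09 and was not called (0.359). Its second probe set was called in neither line (0.15 and -0.03, adjusted p = 0.135 and 0.778).

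Genes that modify receptors or move ligands and receptors were called in 7 of 13 cases in beta-catenin cells, 6 higher and 1 lower, and in 6 of 13 in ICAT cells, 4 higher and 2 lower. Among all genes 18.7% were higher and 14.4% lower in beta-catenin cells, and 17.9% and 17.5% in ICAT cells. Neurl1b, which encodes a ubiquitin ligase of the Neuralized family that acts on ligands, read 5.97, 5.90 and 5.94 on the control arrays, 7.04, 6.89 and 7.0 on the beta-catenin arrays and 5.88, 6.10 and 6.27 on the ICAT arrays. It was 2.06-fold higher with beta-catenin (adjusted p = 5.74e-06), with all arrays above those of the other groups, and was not called in ICAT cells (adjusted p = 0.291). Pofut1, whose product adds fucose to Notch receptors, rose 1.35-fold and 1.28-fold in beta-catenin and ICAT cells (adjusted p = 0.000965 and 0.00382), although neither of its 2 other probe sets was called. The Fringe genes Lfng and Rfng rose 1.32-fold and 1.22-fold in beta-catenin cells, while a second probe set of each was not called (log2 difference 0.06 for both, adjusted p = 0.723 and 0.641). Furin, the convertase that matures the receptors, fell 1.22-fold in beta-catenin and 1.25-fold in ICAT cells. Numb, an inhibitor of Notch, rose 1.28-fold in ICAT cells, though not by its second probe set (0.03, adjusted p = 0.798), and Numbl rose in both lines.

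Among the proteases that cut the receptors, beta-catenin cells had 1 of 7 higher and 1 lower, and ICAT cells 2 higher. The shares of all genes were 18.7% higher and 14.4% lower in beta-catenin cells, and 17.9% and 17.5% in ICAT cells. Adam10 rose 1.14-fold and Adam17 fell 1.21-fold in beta-catenin cells, and the gamma-secretase subunit gene Aph1a rose 1.35-fold in ICAT cells (adjusted p = 0.0479, 0.0116 and 0.00153). None of 3 other Adam10 probe sets was called there (-0.04, 0.18 and -0.08, adjusted p = 0.688, 0.223 and 0.599), both others of Adam17 were called lower, and of 2 others of Aph1a 1 was called higher in ICAT cells (0.34, adjusted p = 0.0273) and 1 was not called (0.23, adjusted p = 0.0755). Among 5 further ligand genes Dll4 fell 1.26-fold in beta-catenin cells and Dlk2, a non-canonical ligand gene, fell 1.21-fold in ICAT cells. The second Dll4 probe set was not called (-0.26, adjusted p = 0.0632). Dlk2 was 1.43-fold higher in beta-catenin than in ICAT cells (adjusted p = 0.000909). In beta-catenin against control cells its brightest probe set was not called (0.24, adjusted p = 0.063). Its second probe set was called higher there (0.42, adjusted p = 0.00379) and lower in ICAT cells (-0.42, adjusted p = 0.00355). Notch4, the fourth receptor gene, lay between 4.43 and 4.67 on the 9 arrays and was not tested.

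Of 14 other target and Deltex genes, beta-catenin cells had 1 higher and 1 lower, and ICAT cells 4 higher. Over all genes the shares were 18.7% higher and 14.4% lower in beta-catenin cells, and 17.9% and 17.5% in ICAT cells. Hes6, a HES-family gene whose product opposes HES1, rose 1.44-fold and 1.43-fold in beta-catenin and ICAT cells. Cdkn1a, which encodes the cell cycle inhibitor p21 and is also a p53 target, read 9.15, 9.22 and 9.13 on the control arrays, 7.98, 7.90 and 8.11 on the beta-catenin arrays and 8.63, 9.41 and 9.25 on the ICAT arrays. It was 2.25-fold lower with beta-catenin (adjusted p = 0.000142), while ICAT arrays overlapped the controls (adjusted p = 0.784). Sox9, a ductal and progenitor factor gene, rose 1.45-fold in ICAT cells and lay at 9.01 in both other groups, and of its 2 other probe sets 1 was called higher in ICAT cells (0.27, adjusted p = 0.0109) and 1 was not called (0.16, adjusted p = 0.094). Gata3 rose 1.56-fold from a dim level of 5.44 and Dtx4, a Deltex gene, 1.39-fold in ICAT cells (adjusted p = 0.00138 and 0.00211), though a dimmer Dtx4 probe set was not called (adjusted p = 0.479). The 18 differences that the naming rule picked among pathway genes kept their calls in each alternative that tested them, which were all 17 except for Gata3, tested in 16. The rule picked them as the largest called differences in these same data. That they kept their calls therefore adds no support and does not speak for the other pathway genes.

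**Figure D4:**
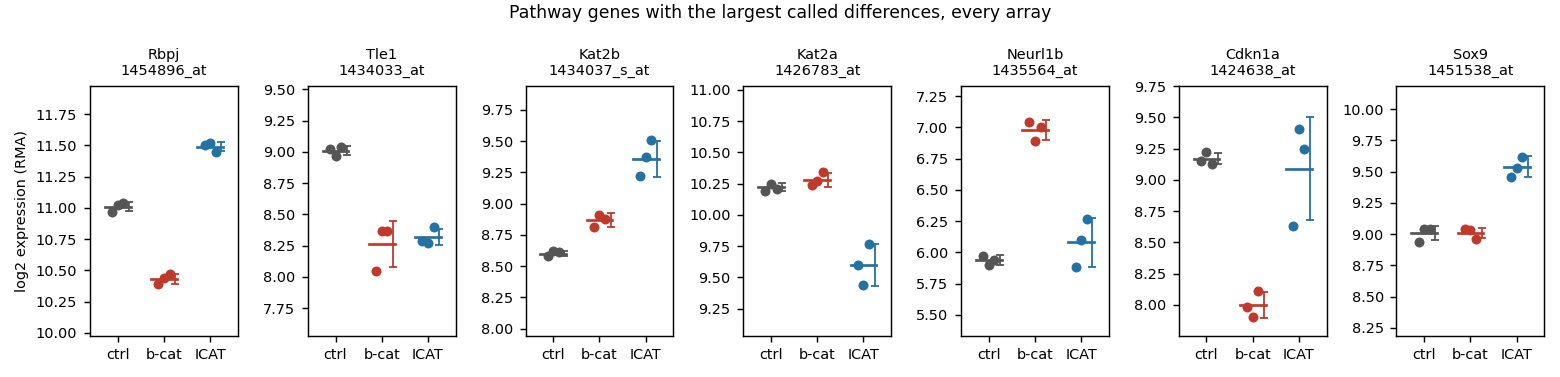
Log2 expression (RMA) on every array of 7 pathway genes among the largest called differences, by group (ctrl, control; b-cat, beta-catenin; ICAT), with the group mean and the SD of 3 arrays. Rbpj separates into 3 levels, from 10.39 to 10.47 in beta-catenin cells to 11.45 to 11.52 in ICAT cells.

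Markers of other cell types moved with the groups, and their counts stand beside 18.7% higher and 14.4% lower among all genes in beta-catenin cells and 17.9% and 17.5% in ICAT cells. The summed linear signal of 11 fibroblast and mesenchymal markers was 32207 to 33121 in control cells, 23990 to 24555 with beta-catenin and 42506 to 46202 in ICAT cells, and of 9 tested members 3 were higher and 3 lower with beta-catenin, and 7 were higher with ICAT. Vim, Col3a1 and Col1a2, the brightest of these markers in control cells, weigh most in the sum and were the 3 lower with beta-catenin. Pdgfra (4.11-fold), Acta2 (2.48-fold) and Col1a1 (2.2-fold) were the 3 higher, so the lower sum does not describe the list as a whole. Of the 11 markers Fap and Lum were under 5 on all arrays, and 9 had a mean of 5 or more in each group. The sum of 9 epithelial and ductal markers was 1123 to 1190 in control cells, 1119 to 1156 with beta-catenin and 1509 to 1853 in ICAT cells, with 4 of 7 tested members higher in ICAT cells. In beta-catenin cells limma called none of the 7, and Muc1 alone had an unadjusted p under 0.05 (0.0245). The acinar and endocrine sum was 823 to 875, 1165 to 1216 and 867 to 956 in the same order, and Cela1 alone was called, higher in both lines. Sums of 10 immune and endothelial markers lay between 577 and 674 in all groups, and of 6 tested members the macrophage gene Cd68 alone was called, lower in beta-catenin than in control cells (-0.55, adjusted p = 0.00113) and than in ICAT cells (-0.77, adjusted p = 0.000104). Sox9 belongs both to the ductal list and to the Notch target list. The part of these shifts in the Notch gene values was not tested, and in RNA from whole cultures fewer cells of a type and less RNA per cell cannot be told apart.

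The genes whose values most resembled those of 4 members over the 9 arrays were listed by Pearson correlation among 15235 genes, as a description. All points share the same 3 groups, so where the groups of a member lie apart, genes with like group means score high. This does not hold for Jag1, whose group means differed by less than the spread within ICAT cells (SD 0.375). For Notch1 they were Parp14 (0.977), Ccn3 (0.976) and Mtss1 (0.975), and the most opposite was Txnl1 (-0.974). For Hes1 they were Rap2c (0.991), Flt1 (0.989) and Pja2 (0.988), and the most opposite was Ndufs1 (-0.987). For Hey1 they were Hsf5 (0.970), Lypla1 (0.951) and Opn3 (0.942), with Klhl17 (-0.957) opposite. For Jag1 they were Ccdc6 (0.945), Card19 (0.927) and Fancb (0.924), with 4930507D05Rik (-0.972) opposite.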

How the data were processed

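Total RNA of 9 samples of 1 mouse line was labelled with a 3′ kit and hybridised to 1-colour arrays, 3 per group. The deposited values are log2 expression values from RMA (affy), which the authors ran, per the submitters' processing notes; versions are not given in the sources at hand. They ran from 2.73 to 14.66. RMA can understate the fold of a dim probe set. No detection calls were used, and log2 5 is a chosen limit. Platform annotation gave 1 symbol to 34945 probe sets, several to 932 and none to 9160; symbols were updated through the RefSeq table, except for 204 probe sets that kept theirs. No 2 arrays held identical values (0 pairs).

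Group means over all 9 arrays were fitted in R 4.3.3 by limma 3.58.1, two-sided, with 5.32 prior and 6 residual degrees of freedom and Benjamini-Hochberg adjustment over all probe sets with log2 5 or more on 3 arrays. The fit was tested on simulated data. Other pathway genes and markers were read by their brightest probe set. Pathway genes were named by rule, the 3 largest called differences each way per comparison; others named illustrate their list and were chosen after their values were seen. The members and lists were chosen with earlier results of these data known. Promoters are RefSeq's. Alternatives covered the filter, 1 probe set per gene, the prior, array weights, arrays of 2 groups, a replicate block, centring and leaving out each array. Some listed pathway genes are not reported here.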

Additional observations from a re-analysis of the deposited data

Results flagged for a closer look

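For 6 member probe sets the difference between beta-catenin and ICAT cells, which is the difference between their responses against the shared controls, passed limma's direct test. Dll1 was lower in beta-catenin than in ICAT cells by -0.75 on the log2 scale, Notch1 by -0.47 and -0.25 by its brighter and dimmer probe sets, and Hes1 by -0.37. Hey1 was higher by 0.39 and Jag2, by its dimmer probe set, by 0.27, while the brighter Jag2 probe set gave -0.01 (adjusted p = 0.927). Of the 17 tested, 11.8% were thus higher and 23.5% lower in beta-catenin cells, beside 19.5% and 15.3% of all tested probe sets. For each of the 6 all 3 arrays of one line lay beyond all 3 of the other. The same held for the uncalled Notch2 (1455556_at) and Heyl (1419303_at). This separation rests on the same values as the test and adds no support to it. The share of all tested probe sets with such separation is not given here, so it does not set these genes apart. The dimmer Notch1 value was at the threshold (adjusted p = 0.0479).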

How the results depend on the processing

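Of 51 member differences, pooled over 3 comparisons that share arrays, 18 were called. Among all tested probe sets 16% were higher and 13.7% lower in beta-catenin than in control cells. In ICAT against control cells these shares were 15% and 16.6%, and between the lines 19.5% and 15.3%. Of the 18 called member differences 7 kept their call in every alternative run and 11 lost it in at least 1, and none turned direction. How often calls of other probe sets held is not given here. Of the 33 uncalled member differences 6 passed in some alternative and 17 changed sign in some, all without a call. The count of called member probe sets in beta-catenin cells ran from 2 to 7 when 1 array was left out (2 without control replicate 2), and that of pathway genes from 11 to 19 (11 without beta-catenin replicate 3). The shares of all features called in these fits are not given here. Whether the counts fell more than those of other genes was therefore not tested. With array weights the uncalled differences turned to -0.03 for Jag1 (1434070_at) and 0.01 for Hey1 in ICAT cells, and to -0.06 for Heyl (1438886_at) between the lines. With array medians centred, Notch3 (1421965_s_at) turned to 0.01 in beta-catenin cells, 0.00 in ICAT cells and 0.01 between the lines, and Jag2 (1426430_at) to 0.02 between the lines.

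Uncalled differences whose sign changed when 1 array was left out had these ranges. In beta-catenin cells they were -0.01 to 0.11 for Notch1 (1418633_at), -0.05 to 0.05 for Notch3 (1421965_s_at), -0.05 to 0.27 for Jag1 (1421106_at) and -0.01 to 0.05 for Jag1 (1421105_at). In ICAT cells they were -0.10 to 0.03 for Notch2 (1451889_at), -0.05 to 0.10 for Notch3 (1421965_s_at), 0.00 to 0.20 for Notch3 (1421964_at), -0.12 to 0.24 for Jag1 (1434070_at), -0.15 to 0.16 for Jag1 (1421106_at), -0.11 to 0.05 for Hey1, -0.14 to 0.03 for Heyl (1419302_at) and -0.14 to 0.03 for Heyl (1438886_at). Between the lines they were -0.11 to 0.04 for Notch3 (1421965_s_at), -0.05 to 0.31 for Jag1 (1434070_at), -0.03 to 0.18 for Jag1 (1421106_at), -0.04 to 0.02 for Jag2 (1426430_at) and -0.10 to 0.06 for Heyl (1438886_at). The cause was not tested.

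With the replicate number as a block 7, 7 and 6 member probe sets were called in beta-catenin cells, ICAT cells and between the lines. The shares of all probe sets called with the block are not given here, so these counts do not set the members apart. The block brought Jag2 (1426430_at) past the threshold (adjusted p = 0.0474 and 0.0362). Same-numbered arrays had deviations correlated from -0.115 to 0.37 and differently numbered ones from -0.392 to 0.321, so the numbers were not taken to pair the samples. ICAT replicate 3 had the lowest array weight (0.263). With 3 arrays a group, differences near the spread of a probe set could not be resolved.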

Other observations

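Several pathway genes gave different answers by their dimmer probe sets, chosen for mention after their values were seen. Nrarp, a feedback inhibitor and Notch target, was lower in beta-catenin cells by its second probe set (1417985_at, log2 difference -0.44, limma, adjusted p = 0.00307) and lower there than in ICAT cells (-0.62, adjusted p = 0.000259), whereas its brightest probe set was not called (-0.16, adjusted p = 0.123). Neurl1a, a Neuralized ubiquitin ligase gene, was higher in beta-catenin cells by 0.47 and 0.65 at 2 dimmer probe sets (adjusted p = 0.00801 and 0.00218). It was not called by the brightest (-0.09, adjusted p = 0.611) or by its other dimmer probe sets (0.05, -0.07 and 0.1, adjusted p = 0.736, 0.544 and 0.287). Itch, which encodes a ubiquitin ligase acting on Notch, was lower in ICAT cells by 1 dimmer probe set (-0.44, adjusted p = 0.0048) and not called by its brightest (0.13, adjusted p = 0.162).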
